A study of Bos taurus with 8 samples.

Results

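Keratins of simple epithelia (KRT7, KRT8, KRT18 and KRT19), the claudins CLDN4 and CLDN7, the surface glycoproteins MUC1 and MSLN and the oviduct glycoprotein OVGP1 were examined in bovine oocytes. They are 9 of the 26804 genes in the expression table, each found there by its symbol, and each symbol had a single entry. They were chosen by their TPM in winter A, the winter library in which several of them stood apart, so their levels in that library are given as a description, with no test. The oocytes were denuded, at the germinal vesicle stage, and came from multiparous, non-lactating beef cows (Angus in the series' design text, crossbred Bos taurus in the study's methods) that were kept together and given a progesterone device with follicle-stimulating hormone before ultrasound-guided follicle aspiration. The groups were 4 summer libraries (A, B, C and E) and 4 winter libraries (A, B, D and E) with the same hormone treatment in both seasons, and no age was given for the cows. The same herd served both seasons, but no source ties a library letter to particular cows, and C and D occur in a single season each. Each library pooled the RNA of a pair of cows, and each season was collected in a single aspiration session, so season and session cannot be told apart, and p-values measure the spread between pools.

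Keratins build the intermediate filaments of epithelial cells as pairs of a type II chain, such as KRT7 or KRT8, with a type I chain, such as KRT18 or KRT19. Claudins span the membrane at tight junctions, where they set which ions pass between the cells of an epithelium. MUC1 is a transmembrane mucin of apical surfaces, MSLN (mesothelin) is a lipid-anchored surface protein best known from mesothelium, and OVGP1 (oviductin) is secreted by the oviduct epithelium and binds the zona pellucida of the ovulated egg.

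Values are TPM, a measure of transcript share in which transcript length is already accounted for, so that levels of different genes can be compared. All columns add up to an equal total, and since TPM does not record depth, no counting interval can be given. In the table, 14477 to 16448 genes per library were above 0. The oocyte genes marked all libraries, with the zona pellucida gene ZP3 at 679 to 3029 TPM and the growth factor gene GDF9 at 289 to 1158 TPM. Leukocyte genes summed to 4.32 to 38.7 TPM, with PTPRC at or below 1.05 TPM but CD14 at 16.1 TPM in winter A and 0 to 13.05 TPM elsewhere. Endothelial genes summed to 20.2 to 44.9 TPM, with PECAM1 at or below 0.457 TPM but TEK at 4.87 to 22.3 TPM. The granulosa gene INHA was present in every library, at 2737 to 17265 TPM. In such bulk samples, fewer cells of a type and less RNA per cell cannot be told apart.

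All 9 genes had their highest level in winter A. Their summed level there was 3850 TPM, against 970 TPM in winter D, the next library, and 77.8 to 545 TPM in the rest. Of the 16022 genes that reached 1 TPM in any library, 20.6% had their highest level in winter A, the largest share of any library. A gene was taken to stand apart in a library when it had at least 10 TPM there and lay at least 3 log2(TPM + 1) units above the highest of the others. By this measure 7 of the 9 genes stood apart in winter A, where the background was 1.5% of the 9853 genes of at least 10 TPM. Since these values chose the genes, nothing is read from that contrast. KRT19 (3.26 units) and KRT7 (3.37 units) lay just inside this limit, and KRT18 (1.89 units) and KRT8 (1.07 units) fell outside it because other libraries also held much of both.

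**Figure D1:**
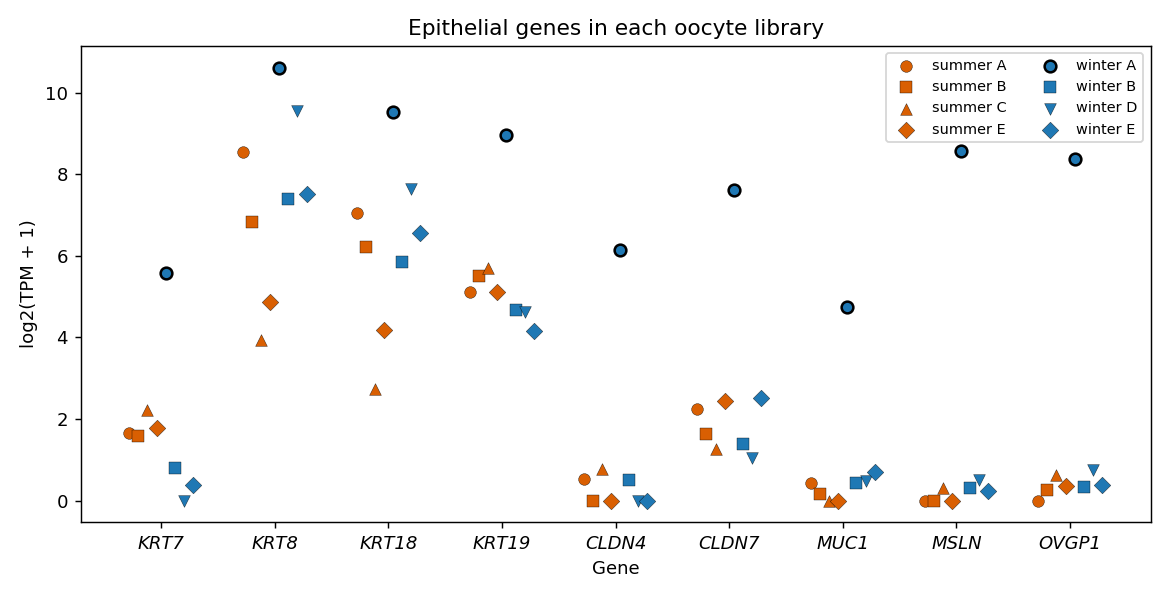
Level of each gene in each library, on the log2(TPM + 1) scale, with summer libraries in orange, winter libraries in blue and the letter of the library given by the marker shape. Winter A, drawn with a heavy outline, is the top point for all 9 genes, by 1.07 units for KRT8 and by 8.06 units for MSLN.

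KRT8 and KRT18, partners in the filaments of simple epithelia, varied together. They had the highest mean level of the keratins chosen in both seasons, but in summer C and summer E KRT19 was above both (51.2 and 33.4 TPM). KRT8 stood at 373 TPM in summer A, 113 in summer B, 14.4 in summer C, 28.2 in summer E, 1568 in winter A, 168 in winter B, 746 in winter D and 183 TPM in winter E. KRT18 stood at 132, 73.5, 5.69 and 17.0 TPM in summer A, B, C and E and at 736, 57.1, 197 and 93.8 TPM in winter A, B, D and E. Both genes were highest in winter A, followed by winter D and summer A, and lowest in summer C and summer E, and the seasons overlapped. Within a library, the KRT8 level was between 1.54 times (summer B) and 3.78 times (winter D) that of KRT18, with 2.13 times in winter A, so this ratio was not extreme in the library where both were highest. In the order of the RefSeq annotation no protein-coding gene lies between them.

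**Figure D2:**
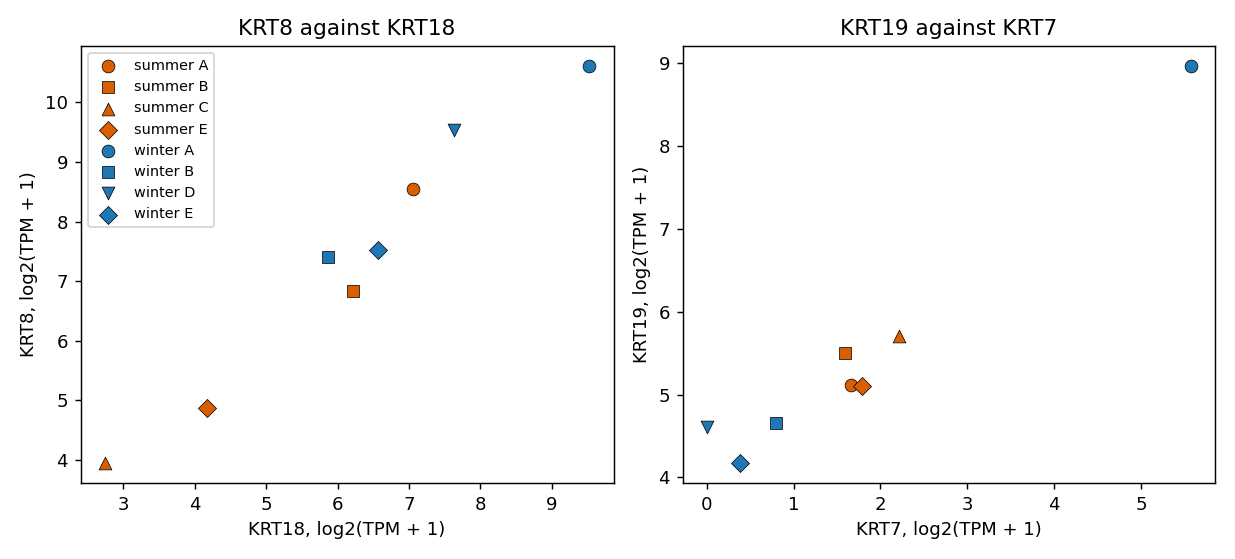
Each point is a library (summer orange, winter blue, letters as marker shapes) on log2(TPM + 1) axes, KRT8 against KRT18 on the left and KRT19 against KRT7 on the right. On the left the libraries spread along the whole range from summer C (14.4 TPM of KRT8) to winter A (1568 TPM), whereas on the right winter A lies far from a cluster of 7 libraries in which all 4 summer points exceed the 3 winter points for both genes.

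KRT19, a short type I keratin, and KRT7, a type II keratin of ducts and glands, followed another pattern. KRT19 stood at 33.7, 44.2, 51.2 and 33.4 TPM in summer A, B, C and E, at 500 TPM in winter A, and at 24.3, 23.5 and 17.0 TPM in winter B, D and E. KRT7 was far lower, with 2.17, 2.005, 3.63 and 2.46 TPM in the same summer libraries, 46.9 TPM in winter A, 0.740 in winter B, 0 in winter D and 0.303 TPM in winter E. Outside winter A, both genes were higher in every summer library than in every winter library. For KRT19 the background was 18.7% of the 13379 genes that passed a filter on low values. KRT7 passed that filter only through its summer values, so that share is no background for it, and nothing is read from its separation. KRT8, in contrast, was lowest in summer C, the summer library with the most KRT19 and KRT7. Profiles were compared by their root mean square distance, the typical gap in log2(TPM + 1) between a pair of genes over the 8 libraries after each was centred on its own mean. This distance was 0.40 between KRT7 and KRT19 and 0.42 between KRT8 and KRT18, but 2.30 between KRT7 and KRT8 and 1.81 between KRT18 and KRT19.

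CLDN7 and CLDN4, tight junction proteins of tubular and glandular epithelia, were low outside winter A. CLDN7 had 3.76, 2.12, 1.38 and 4.48 TPM in summer A, B, C and E, 195 TPM in winter A, and 1.60, 1.06 and 4.75 TPM in winter B, D and E. CLDN4 had 69.9 TPM in winter A and 0 to 0.725 TPM in the other 7 libraries, with 4 of these at 0. Without winter A, the summer and winter values of both genes overlapped.

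MUC1, the transmembrane mucin, stood at 26.0 TPM in winter A, at 0.350, 0.391 and 0.632 TPM in winter B, D and E, at 0.340 and 0.115 TPM in summer A and B, and at 0 in summer C and E. Outside winter A, every winter value of MUC1 thus lay above every summer value, though all were under 1 TPM, and this held for 14.1% of the 18258 genes above 0 in a library other than winter A. MSLN stood at 379 TPM in winter A and at 0.245, 0.418 and 0.167 TPM in winter B, D and E, while in summer it was above 0 only in summer C, at 0.240 TPM. OVGP1, the oviduct secretory glycoprotein, stood at 330 TPM in winter A, with 0, 0.197, 0.556 and 0.290 TPM in summer A, B, C and E and 0.261, 0.669 and 0.298 TPM in winter B, D and E. MSLN and OVGP1 thus ranked 358th and 425th of all genes in winter A and no higher than 13960th in any other library. MSLN lay 906 times and OVGP1 494 times above the highest of the other 7 libraries, and their profiles were the closest of all pairs among the 9 genes (distance 0.18).

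Other members of these families were measured too. Of 48 further keratin genes, 18 reached 1 TPM in some library and 6 of these were highest in winter A. The type I keratins KRT17 (42.05 TPM in winter A, up to 2.76 TPM elsewhere) and KRT9 (87.3 TPM, up to 0.534 TPM) stood apart there, as did the type II keratin KRT80 (11.3 TPM, up to 0.285 TPM), while KRT14 was listed at 7.94 TPM in winter A and at 0 in all others. KRT5, the type II keratin of basal cells, was at 89.3 TPM in winter A and at 9.75 to 32.5 TPM elsewhere. KRT42 reached 6.44 TPM in winter A. Not every keratin was high there, since KRT2, at 213 to 465 TPM, was highest in summer A and KRT73 (23.6 to 88.7 TPM) and KRT77 (1.36 to 5.16 TPM) in summer C. In RefSeq the genes KRT19, KRT9 and KRT14 follow each other with no protein-coding gene between them, and reads of near-identical type I keratins may be divided among copies. Of 20 further claudins, 10 reached 1 TPM and 5 of these were highest in winter A. CLDN3, the RefSeq neighbour of CLDN4, had 165.3 TPM in winter A and 0.855 to 4.62 TPM elsewhere. CLDN1 had 152 TPM in winter A, 10.6 to 38.7 TPM in the other winter libraries and 0.274 to 7.75 TPM in summer. CLDN11 was at 29.5 TPM in winter A and at 4.49 to 16.1 TPM elsewhere. CLDN5 did not mark winter A (13.2 TPM, against 13.8 in winter B), and neither did CLDN12 (12.2 to 25.5 TPM), CLDN23, which was listed at 0 there, or CLDN10, with 33.9 TPM in winter A and up to 73.2 TPM elsewhere. Among mucins, MUC20 had 5.10 TPM in winter A and up to 0.394 TPM elsewhere, and MUC15 was highest in summer A (7.47 TPM).

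The 9 genes were part of a larger group. In winter A 148 genes stood apart, 134 of them with a symbol, and together they held 1.36% of its TPM. The same measure found 0 to 6 genes in each of the other libraries. Apart from the 9 genes, the 15 most abundant of those with a symbol were headed by TFPI2, a Kunitz-type protease inhibitor (1096 TPM, against 0 to 0.0510 TPM elsewhere). They included genes of innate defence, the complement gene C3 (539 TPM, up to 9.94 TPM elsewhere), the acute phase gene SAA3 (196 TPM, listed at 0 elsewhere), the adhesion gene ICAM1 (174 TPM) and the chemokine gene CXCL2 (169 TPM). The invariant chain gene CD74 (616 TPM, 0.398 to 34.3 TPM elsewhere) and the apoptosis inhibitor gene BIRC3 (368 TPM) were among them, as were LY6E (230 TPM) and the phosphatase gene DUSP5 (564 TPM). So were VGF (520 TPM, up to 62.8 TPM elsewhere), the thrombomodulin gene THBD (283 TPM), the small heat shock gene HSPB8 (306 TPM) and the annexin gene ANXA8L1 (220 TPM). FOXJ1, the transcription factor of motile ciliated cells, was at 222 TPM against 0.0819 to 5.32 TPM. The tubulin gene TUBA1D (318 TPM, listed at 0 elsewhere) shares much of its sequence with other tubulin genes, and its value is uncertain.

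**Figure D3:**
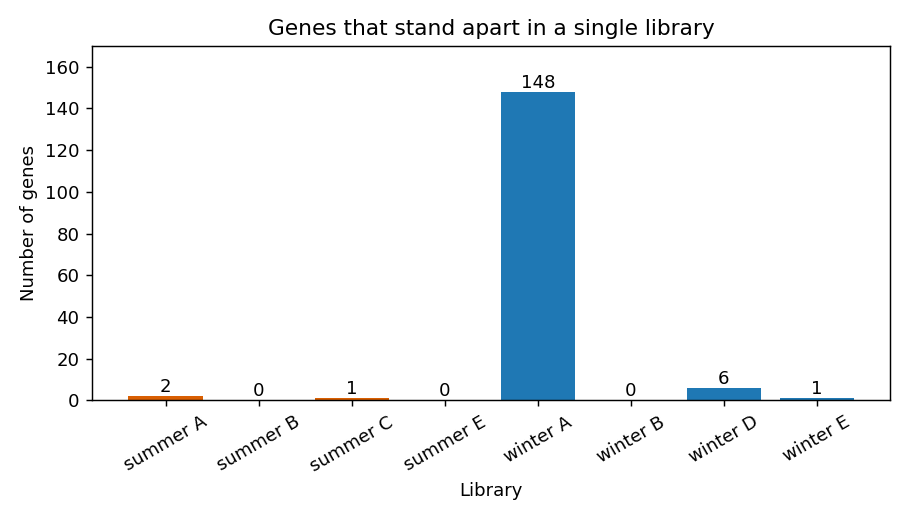
Number of genes that stood apart in each library, meaning at least 10 TPM there and at least 3 log2(TPM + 1) units above the highest of the other 7 libraries (summer orange, winter blue). Winter A had 148, winter D had 6 and no other library had more than 2.

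By profile over the 8 libraries, the nearest genes differed among the 9. For KRT8 they were the nectin-like receptor gene PVR (distance 0.66), ANXA1 (0.70) and the metallothionein gene MT2A (0.83), and for KRT18 they were ID4 (0.58), MT2A (0.67) and TNFRSF12A (0.69). MT2A followed KRT8 in being low in summer C (17.2 TPM) and summer E (75.1 TPM) and at 234 to 734 TPM elsewhere. For KRT19 and KRT7 the nearest included the inositol trisphosphate receptor gene ITPR3 (0.26 and 0.44) and the kinase gene MAK (0.27 and 0.44), with MYOM3 (0.27) for KRT19 and the transporter gene SLC44A4 (0.43) for KRT7. For CLDN4 they were CIBAR2 (0.26), ANO1 (0.28) and TSPAN1 (0.29), for CLDN7 UPK3BL1, C3 and M-SAA3.2 (0.46 to 0.47), and for MUC1 ITPKC (0.15), the cilia gene CCDC39 (0.16) and P2RX2 (0.19). MSLN and OVGP1 shared TUBA1D, THBD and SAA3 (0.17 to 0.30), genes that were almost absent outside winter A. For genes so near 0 elsewhere, the distance mostly reflects how high winter A was.

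Lists of marker genes, with the 9 genes left out, were summed in each library. The list of oviduct secretory and ciliated genes was the one that most marked winter A, with 656 TPM in winter A and 39.1 to 64.9 TPM elsewhere. Of its 12 genes that reached 1 TPM, 11 were highest in winter A and 4 stood apart, FOXJ1, the calcium-binding gene CAPS (122 TPM, up to 4.84 TPM elsewhere), the transcription factor gene SOX17 (53.1 TPM, up to 2.38 TPM) and the radial spoke gene RSPH1 (18.8 TPM, up to 1.37 TPM). PAX8, a transcription factor of Müllerian epithelium, was at 31.3 TPM in winter A, 4.88 to 13.7 TPM in the other winter libraries and 0.855 to 2.48 TPM in summer, and TPPP3 was at 87.2 TPM in winter A and 6.54 to 27.5 TPM elsewhere. SLPI was listed at 0 in all 8 libraries and PGR was as high in winter E (14.7 TPM) as in winter A (14.3 TPM). Families of cilium genes, looked at after FOXJ1 was seen, were high there too. Of 11 axonemal dynein heavy chain genes that reached 1 TPM, 10 were highest in winter A, where the family summed to 82.7 TPM against 11.1 to 25.3 TPM elsewhere, and of 7 radial spoke head genes 5 were (101 TPM against 13.9 to 21.3 TPM). Of 31 genes of the CFAP family 24 were highest in winter A, but their sum was only 765 TPM there against 347 to 664 TPM elsewhere.

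**Figure D4:**
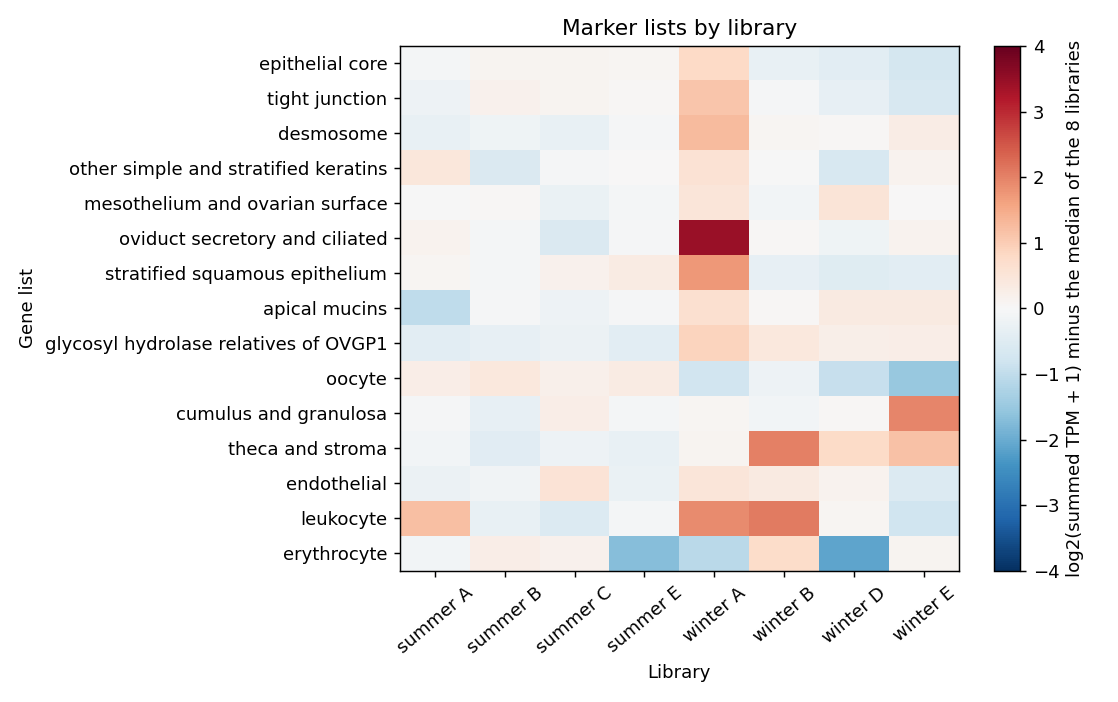
Summed TPM of each marker list in each library, drawn as log2(summed TPM + 1) minus the median of the 8 libraries for that list, with red above and blue below the median; the 9 genes are not in any list. The row of oviduct secretory and ciliated genes in winter A (656 TPM) is the darkest cell, while the theca and stroma row is highest in winter B and the cumulus and granulosa row in winter E.

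General epithelial genes varied in how far winter A differed from the rest. EPCAM was at 198 TPM in winter A and 16.1 to 66.0 TPM elsewhere, the cadherin gene CDH1 at 158 TPM against 40.5 to 102 TPM, and SPINT2 at 403 TPM against 269 to 320 TPM. ESRP1, an epithelial splicing regulator, was not highest there (111 TPM, and 171 TPM in summer A). In the epithelial list 12 of 21 genes were highest in winter A and 4 stood apart, KLF5 (82.9 TPM), EHF (90.9 TPM) and the protease and inhibitor genes ST14 (25.7 TPM) and SPINT1 (32.4 TPM). EHF was at 0 in 6 of the other 7 libraries and at 0.656 TPM in summer A. The epithelial regulator GRHL2 was at 6.12 TPM in winter A and up to 0.725 TPM elsewhere. More abundant genes of the list went the other way and were highest in a summer library. These were GRHL3 (29.2 TPM in winter A, up to 86.7 TPM elsewhere), OVOL1 (46.6 TPM, up to 97.1 TPM), CDH3 (45.7 TPM, up to 78.2 TPM) and AP1M2 (26.3 TPM, up to 56.6 TPM). ELF3, RAB25, GRHL1 and CD24 were not highest in winter A either. Among 22 detected tight junction genes 12 were highest in winter A, led by CLDN3, CLDN1 and the junction adhesion gene F11R (112 TPM, up to 14.8 TPM elsewhere). Desmosome genes summed to 427 TPM in winter A and 144 to 216 TPM elsewhere, most of it JUP (230 TPM, up to 174 TPM elsewhere). Of 10 that reached 1 TPM, 7 were highest in winter A, and only desmoplakin (DSP) stood apart, with 75.3 TPM against 0.576 to 3.01 TPM. DSC2 (5.61 TPM in winter A, up to 9.35 TPM elsewhere), PKP4 (29.6 TPM, up to 37.4 TPM) and PKP1 (2.24 TPM, up to 6.47 TPM) were not highest there.

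Markers of other sources were mixed. Of 10 mesothelial and ovarian surface genes, 4 were highest in winter A and 0 stood apart there, and they summed to 853 TPM in winter A and 883 TPM in winter D. WT1 was at 73.7 TPM in winter A and 9.31 to 23.0 TPM elsewhere, UPK3B at 13.05 TPM against 0 to 2.33 TPM, and PDPN at 87.6 TPM against 4.88 to 16.5 TPM. UPK1B, the most abundant of them, was highest in winter D (813 TPM), and BNC1 (6.49 TPM in winter A, up to 16.6 TPM elsewhere), CALB2 (4.03 TPM, up to 15.3 TPM) and LRRN4 (5.94 TPM, up to 8.98 TPM) were not highest in winter A. Of the stratified squamous genes, LYPD3 stood apart (25.9 TPM, up to 1.38 TPM elsewhere) and S100A14 was at 71.0 TPM against 7.03 to 28.9 TPM, but TP63 was at 3.80 TPM in winter A and at 1.21 to 6.33 TPM elsewhere, and KRT4 was listed at 0. Among relatives of OVGP1 in the chitinase-like family, CHI3L1 stood apart (51.9 TPM, up to 1.24 TPM elsewhere) and CHID1 did not (90.5 TPM, and 104 TPM in winter B). Winter A was in the middle for cumulus and granulosa genes (10056 TPM, 7618 to 36355 TPM over all libraries). For theca and stroma genes it was lowest of the winter libraries (724 TPM, against 1137 to 2700 TPM) but above every summer library (493 to 616 TPM). Oocyte genes summed to 6801 TPM in winter A, between winter D (6130 TPM) and winter B (9983 TPM), and to 13231 to 15491.5 TPM in the summer libraries. The part of any of these cells in the levels of the 9 genes was not tested.

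None of the 9 genes was called between the seasons in the plain fit of all 8 libraries, with or without the filter on low values. KRT8 was called when the letter was added as a replicate block (-1.77, adjusted p = 0.0411, limma) and with library weights (-2.93, adjusted p = 0.0177, limma). All of these fits hold winter A, whose values chose the genes, so the differences in them describe the libraries and are no test of the season. A difference is the summer mean minus the winter mean of log2(TPM + 1), a scale on which changes of low genes come out too small, and a call required an adjusted p under 0.05 over all tested genes and a difference of at least 2-fold (limma). The filter on low values was passed by 5 of the 9 genes. Across the 13379 genes tested, 4.4% were called higher and 5.17% lower in summer. KRT8 had the largest difference of those tested, with 132 ± 166 TPM in summer and 666 ± 658 TPM in winter (SD, n = 4 each; difference -2.72, SE 0.98). KRT18 differed by -2.35 (SE 0.96), CLDN7 by -1.24, KRT19 by -0.25 and KRT7 by 0.12. MSLN, OVGP1, MUC1 and CLDN4 did not pass the filter. Fitted without it, they differed by -2.33, -2.14, -1.45 and -1.33. Without the correction over genes, KRT8 and KRT18 were under an unadjusted p of 0.05 and the other 3 tested genes were not, and nothing is read from this, for the same reason.

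Leaving out winter A, whose values had chosen the genes, changed the season difference of most of them. KRT7 stood at 2.57 ± 0.734 TPM (SD, n = 4) in summer and 0.348 ± 0.372 TPM (n = 3) in winter. It passed the filter only through its summer values, so its test is taken from the fit without a filter, added after seeing the data, in which it was called higher in summer (difference 1.42, SE 0.25, adjusted p = 0.0298, limma) along with 2.43% of 18555 genes, while 2.51% were called lower. KRT19 was higher as well (40.6 ± 8.66 against 21.6 ± 3.99 TPM; difference 0.88, SE 0.22, adjusted p = 0.0206, limma), but short of 2-fold. Without winter A but with the filter, 5.38% of 13557 tested genes were called higher and 5.28% lower in summer, and 13.96% were higher at an adjusted p under 0.05 whatever the size. Of 13 oocyte genes 12 were called higher in this fit, with a median of 1.17 against -0.01 over all tested genes, and the part of this shift in the KRT7 and KRT19 differences was not tested. KRT8 and KRT18 did not pass (differences -2.11 and -1.64, adjusted p = 0.133 and 0.195, limma), and CLDN7 differed by 0.25 (adjusted p = 0.683, limma). In the same fit 9 of 11 theca and stroma genes were called lower in summer, with a median of -2.96 against -0.01 over all tested genes. The part of this shift in the KRT8 and KRT18 differences was not tested. MSLN, OVGP1, MUC1 and CLDN4, fitted without a filter and without winter A, differed by -0.27, -0.17, -0.39 and 0.16 (adjusted p from 0.0959 to 0.674, limma). With both summer A and winter A left out, a setting added after seeing the data, KRT8 was called lower in summer (-2.94, adjusted p = 0.0263, limma). Of the 13614 genes tested in that setting, 749 were called lower and 888 higher. It also drops the summer library with the most KRT8 (373 TPM in summer A, against 14.4 to 113 TPM in the others). With winter A alone left out, the KRT8 values of the seasons overlapped and KRT8 was not called.

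**Figure D5:**
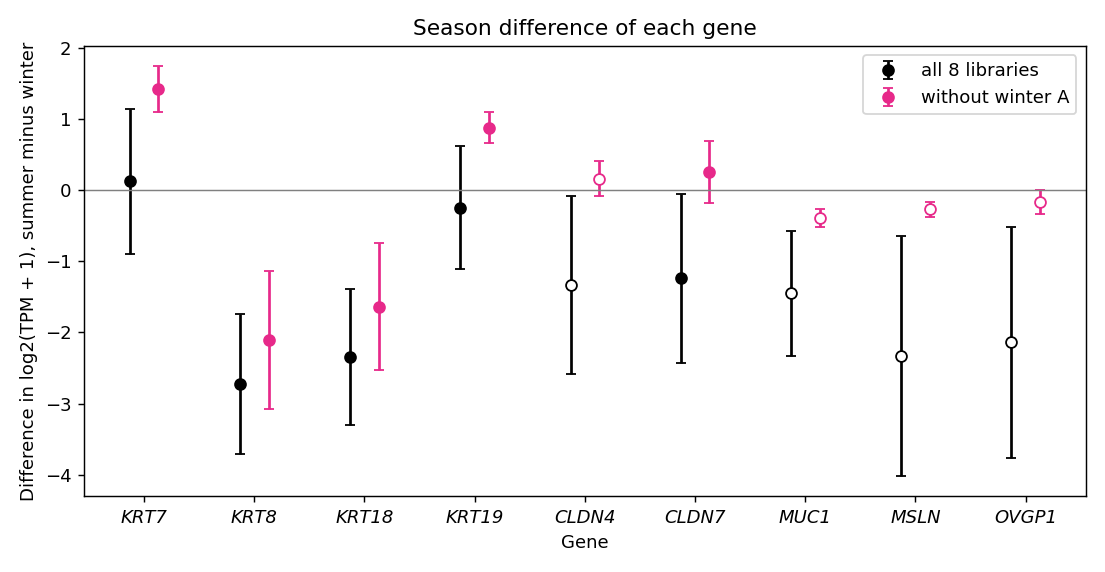
Difference in log2(TPM + 1) between the seasons, summer minus winter, with its SE from limma, for all 8 libraries (black) and without winter A (pink); open circles are the 4 genes that did not pass the filter and were fitted without it. Without winter A the 5 genes CLDN4, CLDN7, MUC1, MSLN and OVGP1 lie between -0.39 and 0.25, KRT7 and KRT19 lie above 0, and KRT8 and KRT18 stay below it with wide errors.

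Calls in the epithelial lists are given with and without winter A, beside 4.4% higher and 5.17% lower over all tested genes with it and 5.38% and 5.28% without it. Of 15 tested genes of the epithelial list 2 were called higher and 0 lower in summer with all libraries (median 0.49, against -0.03 over all tested genes), and 6 higher and 0 lower without winter A (median 0.92, against -0.01). Beside these, 12 of 13 oocyte genes were called higher in each of the same fits (median 1.17). The part of that shift in the epithelial calls was not tested. Of 19 tight junction genes 1 was higher and 2 lower with winter A, and 2 higher and 2 lower without it (medians 0.09 and 0.23). Of 9 desmosome genes 0 were higher and 1 lower with winter A, and 2 higher and 1 lower without it (medians -0.31 and 0.02). Of 7 oviduct genes 0 were higher and 1 lower with winter A, and 1 higher and 1 lower without it (medians -1.08 and -0.54).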

How the data were processed

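Polyadenylated RNA of pooled oocytes was sequenced as paired reads. The authors deposited one table of TPM per gene and library. The study's methods describe trimming and mapping in CLC Genomics Workbench with a trimmed-mean normalization, whereas the processing notes of the submitters list Bowtie2 2.2.2 and DESeq2, with ARS-UCD1.2 as genome build; the pipeline behind the table is thus unclear. No coordinates are printed for that reason, and RefSeq (ARS-UCD2.0), in which all 9 symbols matched, was used for gene order only.

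Groups came from the titles in the labels. Genes with zFPKM above -3, computed from a half-Gaussian fit, in all libraries of at least one season were fitted on log2(TPM + 1) with limma 3.58.1 in R 4.3.3 (eBayes with a trend, Benjamini-Hochberg adjustment over all tested genes). The deposited values are not counts, so this replaces the study's negative binomial fit with its thresholds kept. The fit was tested on simulated data. The 9 genes and the lists were chosen with earlier results of these data known. Genes were named by rule: the 9 genes, other KRT, CLDN and MUC genes of at least 5 TPM in a library, the 15 most abundant genes with a symbol that stood apart in winter A, the 3 nearest profiles of each gene, and up to 4 genes of each list with its defining markers. BNC1, CALB2, LRRN4, RSPH1, PGR, SLPI, KRT4, EHF, KLF5, ST14, SPINT1, GRHL3, OVOL1, CDH3, AP1M2, ELF3, RAB25, GRHL1, CD24, DSC2, PKP1 and the families of cilium genes were picked after their values were seen. One result that the rule would name is not reported here. Alternatives were another pseudocount, other filters, quantile normalization, no trend, library weights, a block for the library letter and leaving out each library.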

Additional observations from a re-analysis of the deposited data

Results flagged for a closer look

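In each season the highest or lowest of the 4 values of each gene was set against the rest, and 8 of 18 such groups had a value farther out than Dixon's 95% limit for 4 values allows. Chance passes this limit in about 1 in 20 groups, but the tally is not compared with that, since most of it is the values that chose the genes. In 7 of them winter A was far above the other winter libraries, with KRT7 at 46.9 TPM, KRT19 at 499.6 TPM, CLDN4 at 69.9 TPM, CLDN7 at 195 TPM, MUC1 at 26.0 TPM, MSLN at 379 TPM and OVGP1 at 330 TPM, and since these values chose the genes they are a description only. The remaining one was MSLN in summer C, at 0.240 TPM, where the other 3 summer libraries were at 0, and any value beside 3 zeros passes this limit. KRT8 and KRT18 in winter did not exceed the limit, and winter D was also high for both.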

How the results depend on the processing

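None of the 9 genes was called in the fit of all 8 libraries. With each library left out, 0 to 2 were lower and 0 to 1 higher in summer (KRT8 was lower without summer A or winter B and KRT18 without summer A, all with winter A in the fit, so nothing is read from these calls). The 1 higher was KRT7 without winter A, where it passed the filter only through its summer values. With library weights 1 was lower (KRT8, -2.93, adjusted p = 0.0177, limma), beside 858 higher and 828 lower of 13379 genes. That fit also holds winter A, so nothing is read from its call. Without summer A and winter A together, which was added after seeing the data, 1 was lower (KRT8) and 1 higher (KRT7, 1.47). KRT7 passed the filter of that fit only through its summer values, so nothing is read from its call there. Without winter A and without a filter, also added then, 1 was higher (KRT7). With a replicate block for the letter 1 of the 9 was lower (KRT8, -1.77, adjusted p = 0.0411, limma), again with winter A in the fit, and 179 genes were higher and 296 lower, against 589 and 692 without it. The same herd served both seasons and the study's methods speak of corresponding replicates. No source ties a letter to cows, so the letters were not taken to pair the libraries in the main fit. Deviations of libraries of one letter correlated at 0.05 (A, with winter A in it), 0.14 (B) and 0.20 (E). Of 6 libraries, 6 correlated best with their own letter, a hint from the data and not from the design. These values do not settle whether letters pair the libraries. Leaving out each library gave 270 to 983 genes higher (fewest without winter E, most without winter B) and 518 to 768 lower, and without summer A and winter A together 888 were higher.

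The direction of 3 genes turned. KRT19 (-0.25) was 0.19 with library weights, -0.72 to 0.88 with each library left out, 0.88 without winter A and without a filter, and 0.96 without both A libraries. KRT7 (0.12) was 1.21 with a pseudocount of 0.1, 0.60 with library weights, -0.57 with the replicate block and -0.44 to 1.42 with each library left out. CLDN7 (-1.24) was -1.94 to 0.25 with each library left out, 0.25 without winter A and without a filter, and 0.14 without both A libraries. The positive values of KRT19 were those without winter A or with weights, and those of CLDN7 only those without winter A. The cause was not tested beyond that. KRT8 and KRT18 kept their direction in all 17 alternatives (-3.56 to -1.77 and -3.02 to -1.50). Genes that stood apart in winter A numbered 233 with a gap of 2 log2 units and 72 with a gap of 4, where 7 and 5 of the 9 genes were among them, and 133 after quantile normalization. TPM keeps no depth, so the counting error of values near 0 is unknown.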
